A study of Mus musculus with 2 samples.

Results

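KDM2A binding was examined at 4 genes, Bdnf, Rae1, Stat3 and Brd2. They were chosen by name, because the study also measured KDM2A there by ChIP-qPCR, at the promoter and in the gene body. Each was followed in a fixed window of the mm9 mouse genome, 61 kb for Bdnf, 11 kb for Rae1, 11 kb for Stat3 and 20 kb for Brd2. The 4 windows hold 412 bins of 250 bp, of the 10130200 bins tested in the whole genome, and the 50 kb on each side of a window served as its local background. How much of each gene a window covers was not determined, since no annotation of mm9 was used. For ChIP-seq, chromatin was precipitated with an antibody specific for KDM2A and sequenced as 1 library, and untouched input chromatin as 1 control library. Both came from untreated V6.5 mouse embryonic stem cells (ESCs), a line from a cross of C57BL/6 and 129/sv mice for which the sample record names the strain C57BL/6. The cells were grown on feeder fibroblasts and then passaged on gelatin without feeders before ChIP. Each library was amplified by 18 cycles of PCR. There are no replicates and there is no second condition, so every test here compares these 2 libraries only.

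KDM2A is a demethylase that removes dimethylation of lysine 36 of histone H3. It carries a zinc finger CxxC domain that recognises CpG dinucleotides whose cytosine is not methylated. Such CpGs are concentrated in CpG islands, stretches rich in C, G and CpG that cover many promoters. The 4 genes have unrelated functions. Rae1 is an mRNA export factor of the nuclear pore, Stat3 is the transcription factor through which leukaemia inhibitory factor acts in mouse ESCs, Brd2 is a bromodomain protein of the BET family that binds acetylated histones, and Bdnf encodes a neurotrophic factor. Bdnf is known for its alternative promoters, each followed by its own 5' exon that is spliced to a common coding exon.

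The letters that the CxxC domain reads can be seen in the promoters. RefSeq (GRCm38.p6) gave 12 promoters for the 4 genes, 7 for Bdnf, 1 for Rae1, 1 for Stat3 and 3 for Brd2, numbered here 5' to 3' along the gene. The motif CG, which is the same on both strands, was counted in the 250 bases before each start. For each gene the promoter with the most CG is shown, and for Bdnf also the one with the fewest, written 5' to 3' on the strand of the gene (plus for Bdnf and Rae1, minus for Stat3 and Brd2) with each CG in capitals.
Brd2 start 1: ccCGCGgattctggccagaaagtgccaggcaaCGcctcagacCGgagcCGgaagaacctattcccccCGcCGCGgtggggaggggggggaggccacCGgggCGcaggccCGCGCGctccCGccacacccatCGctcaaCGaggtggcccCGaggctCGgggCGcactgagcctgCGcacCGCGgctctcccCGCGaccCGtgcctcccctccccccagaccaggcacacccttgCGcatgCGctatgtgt
Rae1 start 1: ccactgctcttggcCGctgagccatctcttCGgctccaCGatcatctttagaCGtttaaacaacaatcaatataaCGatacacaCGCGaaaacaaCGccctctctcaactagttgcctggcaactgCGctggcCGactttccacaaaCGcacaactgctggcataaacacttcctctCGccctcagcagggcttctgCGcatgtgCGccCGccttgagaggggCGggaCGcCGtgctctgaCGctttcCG
Stat3 start 1: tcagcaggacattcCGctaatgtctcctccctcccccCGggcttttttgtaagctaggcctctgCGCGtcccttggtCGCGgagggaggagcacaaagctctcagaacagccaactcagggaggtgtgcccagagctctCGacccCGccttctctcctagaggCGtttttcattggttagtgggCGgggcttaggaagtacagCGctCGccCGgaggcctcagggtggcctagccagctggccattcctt
Bdnf start 5: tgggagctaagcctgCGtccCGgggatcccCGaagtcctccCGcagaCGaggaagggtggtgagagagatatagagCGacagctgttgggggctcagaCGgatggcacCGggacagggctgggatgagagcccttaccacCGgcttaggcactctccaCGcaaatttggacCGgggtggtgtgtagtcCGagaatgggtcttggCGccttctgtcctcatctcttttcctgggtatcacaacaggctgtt
Bdnf start 6: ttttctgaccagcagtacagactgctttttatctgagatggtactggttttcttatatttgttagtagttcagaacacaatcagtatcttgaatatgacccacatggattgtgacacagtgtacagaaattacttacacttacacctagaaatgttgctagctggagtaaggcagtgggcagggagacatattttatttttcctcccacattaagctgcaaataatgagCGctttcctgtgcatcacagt

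The promoter of Brd2 start 1 held 27 CG in 250 bases, and 8.56% of the 32851 RefSeq promoters held at least as many. The other Brd2 starts held 12 and 18. The Rae1 promoter held 20 CG, a number reached by 17.9% of promoters. The Stat3 promoter and that of Bdnf start 5 each held 13, reached by 31.5%. From start 1 to start 7, the Bdnf promoters held 9, 4, 9, 8, 13, 1 and 7 CG. The single CG of Bdnf start 6 was at the low end of all promoters, of which 18.8% held 1 or none. The median over all RefSeq promoters was 6 and 92.1% held at least 1 CG. These counts describe letters only, since methylation was not measured in these libraries and positions of the starts in mm9 were not used.

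**Figure D1:**
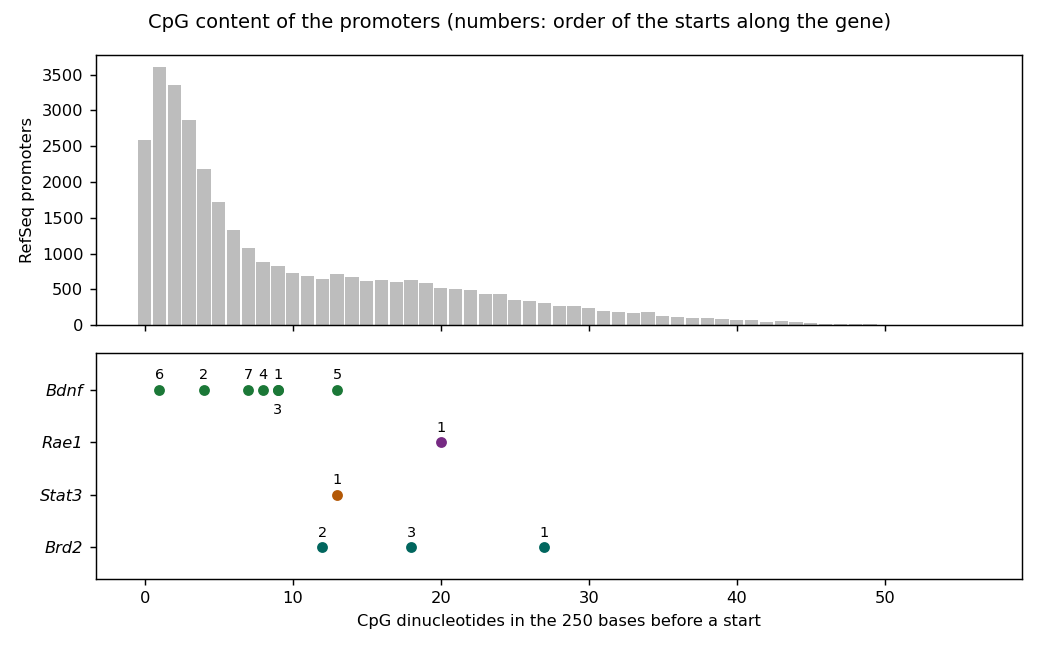
Number of CpG dinucleotides in the 250 bases before a transcription start, for all 32851 RefSeq promoters (top, bars count promoters) and for the 12 promoters of the 4 genes (bottom, numbered along the gene). Brd2 start 1 with 27 and Rae1 with 20 lie to the right, and Bdnf start 6 with 1 lies at the left end.

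A tag is the position of 1 aligned read. The ChIP library held 10042076 tags and the input library 9760426. Repeats of a position already seen on that strand were 4.75% of ChIP tags and 20.4% of input tags. Tags on the plus strand were moved by 50 bp to the right and those on the minus strand by 50 bp to the left before they were counted in bins. A bin was called when its ChIP tags exceeded, by a one-sided exact Poisson test, both the genome mean of 0.991 tags and the input around it, scaled by 1.03 for the totals, with a Benjamini-Hochberg adjusted p under 0.01 over all bins. Called bins within 500 bp were joined into a cluster. In the whole genome 1.05% of bins were called and formed 43912 clusters. With the libraries exchanged, so that input was tested against ChIP, 0.144% of bins were called. With repeats of a position dropped, so that each position and strand counts once, these shares were 0.97% and 0.00328%. Intervals and tests cover counting error only, because there is 1 library for each group. PCR copies are not independent molecules, so intervals from all tags can be too narrow and p-values too small even for that error.

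At all 4 genes, 57.0% to 64.5% of the KDM2A tags of the window were gathered in called clusters. Over the whole genome, clusters held 16.3% of the ChIP tags in 1.18% of the bins. The share in a window also depends on how closely the window was drawn, so it is not read as a trait of the genes. Of the 412 bins of the windows, 45 were called (10.9%), against the 1.05% of the genome, and they formed 9 clusters, 5 in the Bdnf window, 2 in the Rae1 window and 1 each in the Stat3 and Brd2 windows. By window, 16 of 244 bins were called for Bdnf, 5 of 44 for Rae1, 5 of 44 for Stat3 and 19 of 80 for Brd2. With repeats dropped the count was again 45. None of the 412 bins was called when input was tested against ChIP (0 called), with all tags or with repeats dropped. The genome shares for these tests were 0.144% and 0.00328%, so 0 is near what any 412 bins would give and is not read as a result. The windows were drawn around chosen genes and not at random, so their share of called bins is set beside that of the genome as a description. The clusters held 60.4% of the ChIP tags of the windows in 11.9% of their bins.

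**Figure D2:**
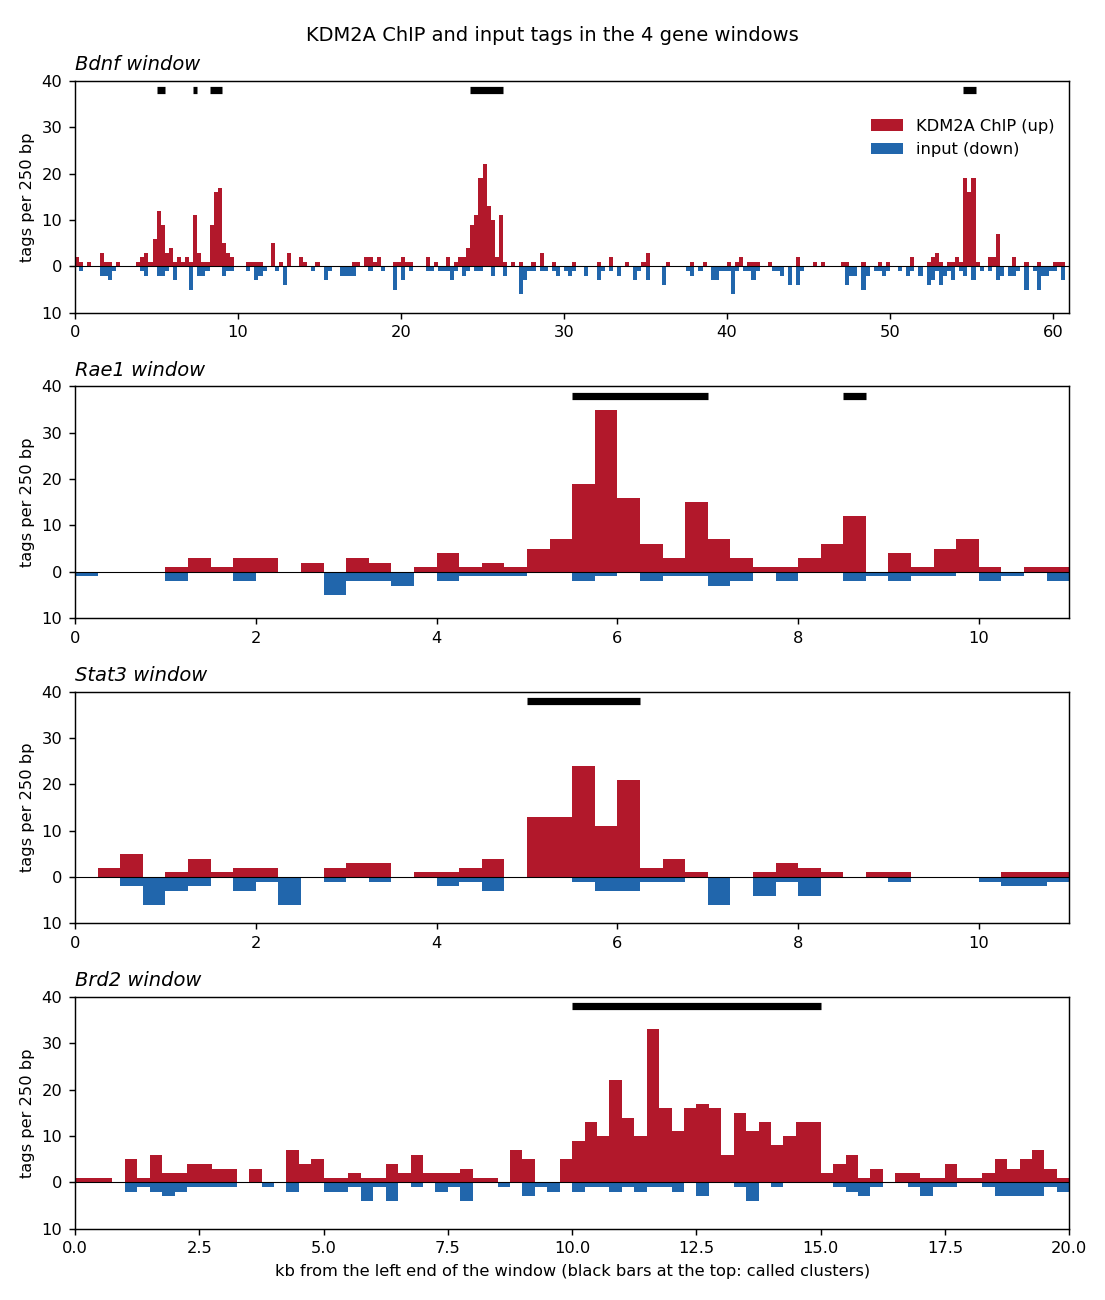
KDM2A ChIP tags (red, upward) and input tags (blue, downward) per 250 bp bin across the 4 windows, in kb from the left end of each window. Black bars mark the called clusters, 5 for Bdnf, 2 for Rae1, 1 for Stat3 and 1 for Brd2. Input stays at 6 tags or fewer per bin in all 4 windows.

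Rae1 had the highest bin of the 4 genes. Its main cluster lies at chr2:172825501-172827000 (mm9) and held 94 ChIP tags against 7 of input. The bins rose from 5 and 7 tags through 19 to 35 tags at chr2:172825751-172826000, and fell to 16, 6 and 3 tags, before a further bin of 15 tags closed the cluster. In the bin of 35 ChIP tags there was 1 input tag, and the lowest adjusted p was 4.34e-35 (exact Poisson test). The ratio of ChIP to scaled input over the cluster was 13.1 (95% exact interval 6.09 to 33.4). A separate single bin, at chr2:172828501-172828750, held 12 tags from ChIP and 2 from input, a ratio of 5.83 (1.30 to 53.6). Its adjusted p in the exact Poisson test was 1.12e-06. It was not called without movement of tags or with a random 50% of the tags, whereas the main cluster was called in both settings. The remaining 9.25 kb of the Rae1 window held 80 ChIP and 39 input tags.

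At Stat3 a single cluster was called, at chr11:100800001-100801250, with 82 ChIP and 7 input tags. Its 5 bins held 13, 13, 24, 11 and 21 ChIP tags, so that it had no single summit. The lowest adjusted p was 7.26e-18 (exact Poisson test) and the ratio to scaled input was 11.4 (95% exact interval 5.28 to 29.2). The edges were sharp, since the bin to the left held 0 tags and the bin to the right held 2. The other 9.75 kb of the window held 52 tags from ChIP and 55 from input, and no bin there held more than 5 ChIP tags.

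Brd2 carried the widest cluster. It spanned 5 kb, at chr17:34255001-34260000, and held 276 ChIP tags against 22 input tags, a ratio of 12.2 (95% exact interval 7.89 to 19.8). 19 of its 20 bins were called, and the bins held between 6 and 33 ChIP tags, with the highest at chr17:34256501-34256750, where input held 1 tag (adjusted p = 3.15e-30, exact Poisson test). Of all clusters in the genome, 114 (0.260%) were at least as wide and 0.487% held at least as many ChIP tags. Both shares depend on how many small clusters are counted, since 22443 of the 43912 were single bins. They were not computed under other settings. Bins of 10 tags or more were found from near the left end to the right end of the cluster, so the width was not due to a few bins joined across empty ones. The input tags were spread at 4.40 per kb inside the cluster and 5 per kb in the remaining 15 kb of the window.

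Bdnf, whose window was also the longest, carried 5 separate clusters. Along the gene, which runs from left to right, they fell into 3 groups. The leftmost group had 3 clusters. The cluster at chr2:109514001-109514500 held 21 tags from ChIP and 4 from input, for a ratio of 5.10 (95% exact interval 1.72 to 20.4). The bin at chr2:109516251-109516500 held 11 ChIP and 0 input tags. With the input set to a floor of 3 tags the ratio was 3.56, and the exact 95% lower limit of the ratio was 2.44. The cluster at chr2:109517251-109518000 held 42 ChIP and 0 input tags, a ratio of 13.6 by the same floor, with an exact lower limit of 10.6. The lowest adjusted p of the 3 clusters, from left to right, was 1.88e-07, 4.37e-06 and 4.76e-13 (exact Poisson test).

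After 15.25 kb without a called bin came the main Bdnf cluster, at chr2:109533251-109535250, with 97 ChIP and 4 input tags over 2 kb. Its highest bin, at chr2:109534001-109534250, held 22 ChIP tags, with 0 of input (adjusted p = 8.60e-18, exact Poisson test), and the ratio over the cluster was 23.6 (95% exact interval 8.92 to 88.2). The rightmost cluster followed after a further 28.25 kb, at chr2:109563501-109564250. Its 3 bins held 19, 16 and 19 ChIP tags against 5 input tags in all, a ratio of 10.5 (4.23 to 33.6), and the lowest adjusted p was 2.57e-12 (exact Poisson test). The bins on either side held 1 ChIP tag each. No cluster was called between the main and the rightmost one. Which of the 7 RefSeq starts lie under which cluster was not determined, since the starts were not placed in mm9.

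The 28.25 kb stretch between the main and the rightmost Bdnf clusters was low in ChIP tags relative to input. There were 51 tags from ChIP and 126 from input, a ratio of 0.393 (95% exact interval 0.278 to 0.549), and no bin of it held more than 3 ChIP tags. The 15.25 kb stretch to the left of the main cluster held 56 and 52 tags, a ratio of 1.05 (0.705 to 1.56), and these intervals do not overlap. Outside clusters, the whole genome had a ratio of 0.854. The low ratio was not particular to the stretch, since the 5.75 kb to the right of the rightmost cluster had 0.577 (0.309 to 1.05) and the Bdnf flanks outside clusters 0.597 (0.50 to 0.712), both with intervals that overlap that of the stretch. The stretch was singled out after its values were seen, so these intervals are a description.

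Side by side, the main clusters of the 4 genes were more alike in density than in width. In ChIP tags per kb, the Stat3 cluster held 65.6 (95% exact interval 52.2 to 81.4), the Rae1 cluster 62.7 (50.6 to 76.7), the Brd2 cluster 55.2 (48.9 to 62.1) and the main Bdnf cluster 48.5 (39.3 to 59.2). Neighbours in this order have overlapping intervals. The density of all 9 clusters lay between 42.0 and 72.0 tags per kb, the highest being the rightmost Bdnf cluster. Over all clusters of the genome the 10th percentile was 32, the median 44.0 and the 90th percentile 72.9. The widths of the 4 main clusters were 1.25 kb at Stat3, 1.5 kb at Rae1, 2 kb at Bdnf and 5 kb at Brd2, where the genome median was 250 bp and the 90th percentile 1500 bp. Clusters of the genome thus also spread less in density than in width, so this likeness is not particular to the 4 genes. A bin needed at least 7 ChIP tags to be called, which by construction limits how low the density of a cluster can be.

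**Figure D3:**
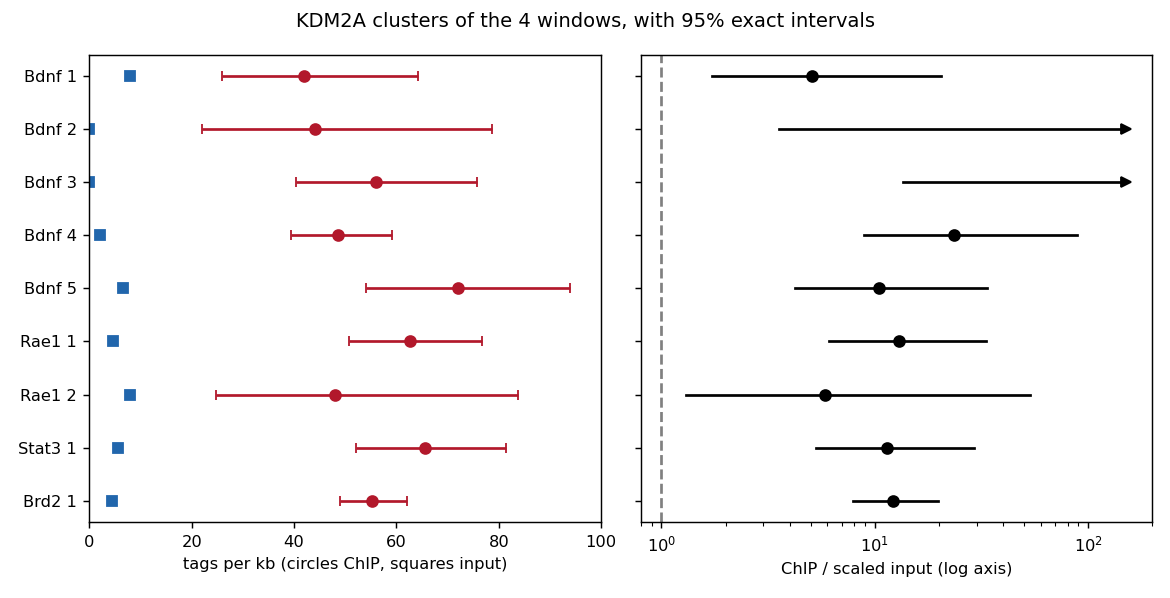
The 9 clusters, numbered left to right within each window. Left, ChIP tags per kb (red circles, bars are 95% exact Poisson intervals) and input tags per kb (blue squares). Right, ratio of ChIP to scaled input on a log axis with 95% exact intervals. The arrows of Bdnf clusters 2 and 3, which hold 0 input tags, start at the ratio against a floor of 3 input tags. Their exact lower limits, 2.44 and 10.6, lie further left and are not drawn. Since bins were called for their ChIP excess over input, ratios above 1 follow from the choice, and the plot shows their spread, from 3.56 against the floor to 23.6.

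By height, the number of ChIP tags in the highest bin, the order was Rae1 with 35 (95% exact interval 24.4 to 48.7), Brd2 with 33 (22.7 to 46.3), Stat3 with 24 (15.4 to 35.7) and the main Bdnf cluster with 22 (13.8 to 33.3). No neighbours in this order differ beyond these intervals. Among all clusters of the genome, 4.62% were at least as high as that of Rae1, 5.82% as that of Brd2, 15.1% as that of Stat3 and 18.3% as the main one of Bdnf. These shares rest on how many low clusters are counted, since 22443 of the 43912 were single bins. At an adjusted p limit of 0.0001 they were 8.07%, 10.2%, 26.5% and 32.2% in the same order, and with the genome mean alone as background 2.78%, 3.51%, 9.09% and 11.03%. The clusters of 11 and 12 tags at Bdnf and Rae1 were ordinary in height, with 61.4% and 52.4% of all clusters at least as high.

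**Figure D4:**
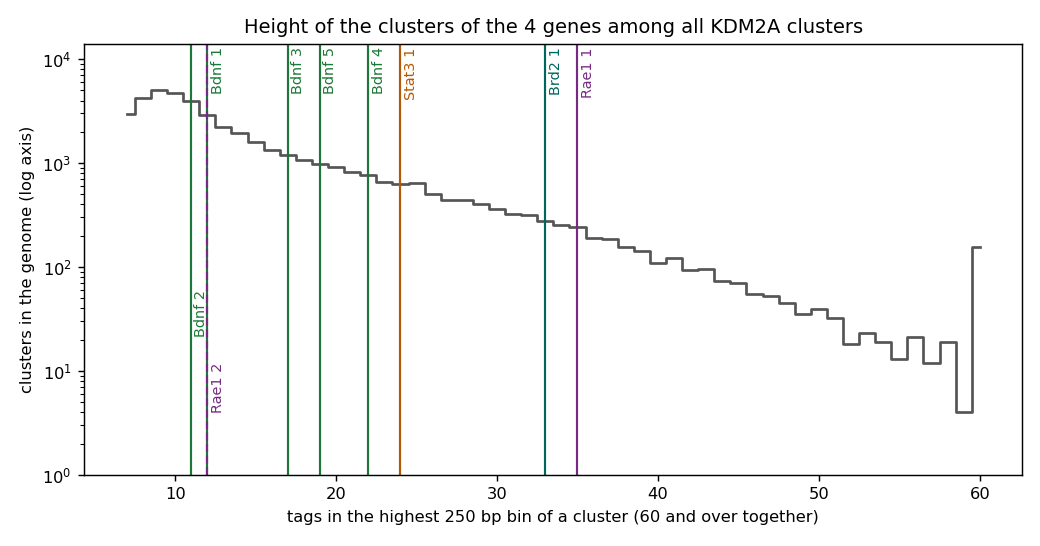
Heights of all 43912 KDM2A clusters of the genome (line, clusters per height on a log axis, heights of 60 tags and over counted together) and of the 9 clusters of the 4 genes (vertical lines). The Rae1 and Brd2 main clusters, at 35 and 33 tags, lie far to the right of the genome median of 12 tags, and the smallest at Bdnf and Rae1 lie near it.

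The clusters rested on many positions. Repeats of a position made up 0 to 9.57% of the ChIP tags of a cluster. With each position and strand counted once, the main clusters held 85 ChIP tags at Rae1, 75 at Stat3, 254 at Brd2 and 93 at Bdnf, against 7, 5, 18 and 4 input tags. In ChIP-seq, plus-strand tags are expected to the left of minus-strand tags at a bound site. Before tags were moved, the median of the plus-strand tags lay left of that of the minus-strand tags in 8 of the 9 clusters and 500 bp around them, by 24.5 to 208.5 bp. The exception was the 5 kb cluster of Brd2, where it lay 109 bp to the right. These medians rest on as few as 7 tags of a strand and no interval was computed for them. Clusters in the flanks had offsets in both directions, so the count of 8 is a description.

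Each window was then compared as a whole with its flanks by a two-sided Fisher's exact test on tag counts, with p-values adjusted over the 4 windows. This test uses all tags of a window and its flanks, whether or not they lie in called clusters. The flanks held 25 called clusters of their own, 4 of them at Stat3, and the windows differ in length. The order of the odds ratios is therefore not read as an order of binding at the genes. The Brd2 window held 428 ChIP and 97 input tags and its flanks 1051 and 619, an odds ratio of 2.60 (95% exact interval 2.03 to 3.34, adjusted p = 1.19e-15). The Bdnf window held 393 and 249 tags and its flanks 215 and 337, an odds ratio of 2.47 (1.95 to 3.15, adjusted exact p = 3.04e-14). The Rae1 window held 186 and 48 tags and its flanks 1185 and 623, an odds ratio of 2.04 (1.45 to 2.90, adjusted exact p = 1.56e-05). The Stat3 window held 134 and 62 tags and its flanks 1001 and 674, an odds ratio of 1.45 (1.05 to 2.03, adjusted exact p = 0.0204). The Stat3 difference did not pass with repeats of a position dropped, where the odds ratio was 1.34 (0.944 to 1.92) with an adjusted p of 0.0957 by Fisher's exact test.

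Outside the clusters the 4 windows were not alike. In the Bdnf window the remaining 56.75 kb held 2.96 ChIP and 4.16 input tags per kb, a ratio to scaled input of 0.692 (95% exact interval 0.564 to 0.847), and at Stat3 the ratio was 0.919 (0.617 to 1.37). In the Rae1 window the ratio was 1.99 (1.34 to 3.0) and in the Brd2 window 1.97 (1.48 to 2.63), both above the 0.854 of the genome outside clusters. The flanks outside clusters followed the same order, with 0.597 (0.50 to 0.712) at Bdnf, 1.15 (1.04 to 1.28) at Stat3, 1.43 (1.29 to 1.59) at Brd2 and 1.54 (1.39 to 1.71) at Rae1. Relative to the genome outside clusters, the ratio was higher both in the window and in the flanks of Rae1 and Brd2, and lower in both at Bdnf. In the Bdnf window the upper limit of 0.847 was close to the genome value of 0.854. At Stat3 it was higher in the flanks, while the interval of the rest of the window includes the genome value. At this depth a bin needed at least 7 ChIP tags to be called, so weaker binding in single bins was not detectable. Input per kb in the flanks was 3.37 at Bdnf and 6.19 to 6.74 at the other genes, and its part in the ratios was not tested.

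**Figure D5:**
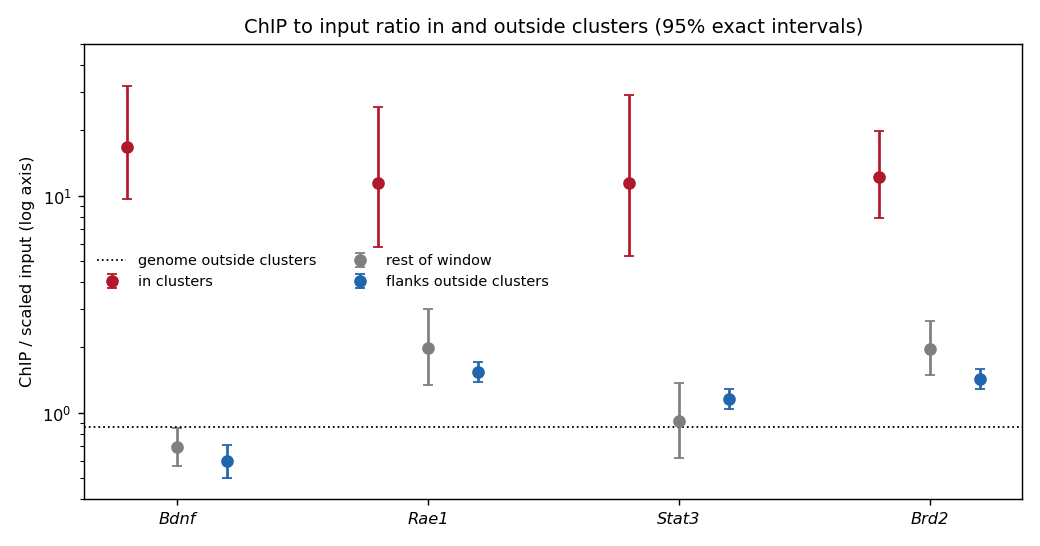
Ratio of ChIP to scaled input, on a log axis with 95% exact intervals, in the clusters of each window (red), in the rest of the window (grey) and in the flanks outside clusters (blue). The dotted line is the genome outside clusters, 0.854. Clusters, chosen for a high ratio, lie between 11.4 and 16.8, while the rest of the window is near 2 at Rae1 and Brd2 and below 1 at Bdnf and Stat3.

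Summed over its clusters, which were chosen for a high ratio, each gene had a ratio of ChIP to scaled input of 16.8 at Bdnf (95% exact interval 9.64 to 32.1), 12.2 at Brd2 (7.89 to 19.8), 11.4 at Rae1 (5.81 to 25.7) and 11.4 at Stat3 (5.28 to 29.2). The sum for Bdnf pools 5 clusters over 4.25 kb with unequal ratios, of which 5.10 was the lowest that could be computed and 23.6 the highest, so nothing is read from the order or likeness of these sums. The share of a window's ChIP tags that lay in clusters was 57.3% at Bdnf (95% Wilson interval 52.3% to 62%), 57.0% at Rae1 (49.8% to 63.9%), 61.2% at Stat3 (52.7% to 69.0%) and 64.5% at Brd2 (59.8% to 68.9%). For input, the shares were 5.22%, 18.8%, 11.3% and 22.7%, near the 6.97%, 15.9%, 11.4% and 25% of the length that the clusters take up. Bins were called for ChIP tags in excess of input, so a higher share for ChIP than for input follows from the choice. The shares are given as a description.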

How the data were processed

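ChIP and input DNA from mouse ESCs were sequenced on an Illumina instrument. Per the labels, the authors aligned reads with Bowtie to mm9, and the version is not given in the sources used here. The deposited values are raw counts of tags at each position of either strand, without normalization. The highest count at a position was 7 in the ChIP and 9 in the input library. From these counts, tags were moved by 50 bp and counted in bins of 250 bp wherever the surrounding 10 kb block held a tag of either library. The local input was the mean over a bin and 10 bins on each side (5.25 kb). Python 3.11.15, numpy 2.4.6, pandas 2.3.3, scipy 1.17.1 and matplotlib 3.10.9 were used. The bin test and Fisher's exact test were tested on simulated data. Wilson and exact intervals are at 95%.

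The sample labels give which library is ChIP and which is input. The genes, windows and settings were chosen with earlier results of these data known, and the 4 genes named are all those of the list. Alternatives were repeats of a position dropped, no movement of tags, 500 bp bins, an adjusted p limit of 0.0001, the genome mean alone, input scaled by bins not called, a random 50% of the tags, flanks of 20 kb and flanks without called bins. No genome sequence or annotation of mm9 was used. Promoter letters come from RefSeq windows of GRCm38.p6, whose orientation was checked by TATAAA near the start (295 promoters on the plus and 288 on the minus strand, against 81 and 78 for the reverse complement).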

Additional observations from a re-analysis of the deposited data

How the results depend on the processing

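No paired analysis was possible because ChIP and input are single libraries, and no replicate could be left out. Each window's odds ratio against its flanks stayed above 1 in all 5 alternatives, from 2.31 to 2.62 at Bdnf, 1.78 to 2.41 at Rae1, 1.34 to 1.89 at Stat3 and 2.42 to 3.15 at Brd2. 19 of these 20 values kept their side of the threshold, and the exception was Stat3 with repeats of a position dropped, at 1.34 (adjusted p = 0.0957, Fisher's exact test). Flanks without called bins raise the odds ratio by construction. The ratio of the highest cluster ranged over 7 alternatives from 14.2 to 27.4 at Bdnf, 9.40 to 28.2 at Rae1, 10.2 to 13.3 at Stat3 and 11.4 to 14.2 at Brd2, all within the intervals given above.

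Of 32 counts of clusters in a window, 27 stayed within 1.5 times. Rae1 had 1 cluster without movement of tags and 1 with a random 50% of the tags. Brd2 had 2 without movement of tags, 2 with 500 bp bins and 4 with the genome mean alone. Genome-wide, the number was 25313 with 50% of the tags, 25157 at an adjusted p limit of 0.0001, 71729 with the genome mean alone and 23219 with that limit and repeats dropped together, a setting chosen after seeing the data. The share of clusters as high as each gene's highest moved by over 1.5 times with that limit and with the genome mean alone, both settings added for it after seeing the data. The fewer tags and the stricter limit lower the number by construction. The genome mean alone is never above the background of the main test, so at least as many bins are called by construction. Other causes were not tested. With 1 library for each condition, variation between cultures or ChIP experiments is not covered by any interval.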

Other observations

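The flanks of all 4 genes held further KDM2A clusters. There were 25 in all, 17 of them single bins, with 1 in the flanks of Bdnf, 4 at Stat3, 9 at Rae1 and 11 at Brd2, where the genome average was 1.73 for the same length of 100 kb. RefSeq (GRCm38.p6) places Stat5b and Stat5a before Stat3 and Cavin1 and Atp6v0a1 after it, Spo11 before and Rbm38 after Rae1, H2-Oa and H2-DMa around Brd2, and Kif18a and Lin7c around Bdnf. These names give the order of genes only, and no cluster was assigned to a neighbour.

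The tallest cluster of the 4 neighbourhoods lay outside the windows, in the right flank of Stat3, at chr11:100820001-100821000 (mm9), with 83 ChIP and 9 input tags and a highest bin of 39 tags, where the cluster in the Stat3 window reached 24. A further cluster in that flank, at chr11:100830001-100832000, held 128 ChIP and 14 input tags. Rae1 had neighbours of like size on both sides, with 71 ChIP and 1 input tags at chr2:172804751-172805750 and 105 and 16 at chr2:172845251-172848000. The flanks of Brd2 had more clusters, but lower ones, with highest bins of 17 tags on the left and 15 on the right. The only cluster in the flanks of Bdnf was a bin of 8 ChIP and 0 input tags. With input tested against ChIP, 1 cluster was called in all flanks, at Stat3, and none in the windows (0 of 412 bins). The genome share was 0.144% of bins, so these low counts are not read as a result.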
